A study of Danio rerio with 10 samples.

Results

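Tubulins build the microtubules of the cell and kinesins are motors that walk along microtubules or take them apart. Genes were taken as members when their Ensembl zebrafish gene name, in upper or lower case, began with tuba, tubb, tubd, tube or tubg, or with kif followed by a digit or by c and a digit. The count tables of 33737 genes held 62 such genes, and 57 of them reached 1 CPM (the count of a gene scaled to library size) in 5 or more libraries. The 57 were 20 tubulin genes, counting the subunits of the gamma-tubulin complex, and 37 kinesin genes. Of these, 53 reached 1 CPM in all 10 libraries, and the other four did so in 4 or 5 libraries of each group, so that no member was kept through 1 group alone. The 5 genes left out were tubb1 (1 count over all libraries), TUBB2B (31), a second KIF3C gene (ENSDARG00000017162, 48), kif28 (92) and kif1cb (102).

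Alpha- and beta-tubulin pair into the subunit of which all microtubules are made. In the testis these microtubules form the spindles of dividing spermatogonia and spermatocytes and the axoneme of the sperm flagellum. Gamma-tubulin starts new microtubules, and delta- and epsilon-tubulin belong to the centriole. Kinesins divide the work by family, with some on the spindle and at the site where daughter cells part, some in cilia and flagella, and others carrying vesicles and organelles. In several vertebrates certain tubulin genes are used mainly in germ cells or neurons, which is why the isotypes used by a tissue are of interest.

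The tissue was testis of adult wild-type zebrafish, held in culture for 3 days. All 10 cultures received the androgen 11KT, which the controls therefore share, and 5 received nothing further (control) while 5 also received Amh, a Sertoli cell hormone of the TGF-beta family. Libraries are numbered 1 to 5 in both groups, the labels do not call a number an animal, and libraries of the same number are called a pair here. Library totals were 8455226 to 11934679 counts in control and 10974579 to 15448069 in Amh libraries, which puts the limit for a gene with no read, 3 counts, at 0.194 to 0.355 CPM. Such limits cover counting error only. In every pair the Amh library was the deeper, by 1.20 to 1.30 times.

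Gene names are spelled as the name table gives them, often in upper case. Counts were not divided by transcript length, for which no table was used here, so an order of CPM between genes is an order of reads and not of transcripts. Alpha-tubulin genes are near copies of one another, as are several beta-tubulin genes, and how the authors counted reads that match more than one gene is not given in the sources used here. Shares between such genes are therefore uncertain. A share is of the counts of the genes found by name, so genes under other names or without counts here are outside it. All tissue is testis, so whether a gene is restricted to testis was not tested.

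Of 10 alpha-tubulin genes, tuba8l4 and tuba5 took most of the reads. tuba8l4 (ENSDARG00000006260) held 39.4% of the counts of these 10 genes on average over the 10 libraries (35.1% to 45.8%). tuba5 (ENSDARG00000042708) held 37.4% (32.0% to 40.4%). One or the other ranked first in each library, and neither fell below rank 2. tuba8l4 stood at 404, 431, 363, 579.8 and 387 CPM in control libraries 1 to 5 and at 379, 445, 424, 625 and 372 CPM in Amh libraries 1 to 5. tuba5 stood at 385, 454, 332, 405 and 376 CPM in control and at 394, 473, 401, 503 and 428 CPM in Amh cultures, in the same order. Number 4 was the highest for tuba8l4 in both groups, and the ranges of the groups overlapped for both genes.

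tuba8l2 (ENSDARG00000031164) and tuba1b (ENSDARG00000045367) followed with 8.46% and 5.27% of the counts of the 10 alpha-tubulin genes. tuba8l2 was the higher in every library but Amh library 4, where it stood at 86.2 CPM and tuba1b at 100.5 CPM. tuba1b stood at 47.7, 49.4, 46.5, 76.9 and 49.5 CPM in control libraries 1 to 5 and at 46.4, 59.9, 58.9, 100.5 and 59.6 CPM in Amh libraries 1 to 5. Its libraries numbered 4 were the highest of their group. The other six alpha-tubulin genes held 0.309% to 2.67% each: tuba8l3, TUBA1A, tuba2, tuba4l, tuba1c and tuba8l5. The neighbouring ranks of tuba8l3, TUBA1A and tuba2 crossed between libraries, while tuba1c and tuba8l5 were the last in all 10.

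TUBA1A (ENSDARG00000001889), known in mammals as a main alpha-tubulin of growing neurons, had the widest spread between numbers of the alpha-tubulins. It stood at 30.6, 15.1, 52.1, 24.6 and 22.7 CPM in control libraries 1 to 5 and at 24.4, 15.4, 41.6, 22.9 and 22.0 CPM in Amh libraries 1 to 5, highest in number 3 and lowest in number 2 in both groups. In the RefSeq gene order of assembly GRCz12tu, tuba1c, tuba1a and tuba1b lie side by side with 0 protein-coding genes between them, and so do tuba8l3 and tuba8l5. The neighbours did not share the TUBA1A pattern: tuba1b and tuba1c were highest in number 4, with means over both libraries of 88.7 and 11.6 CPM there against 52.7 and 8.94 CPM in number 3. tuba8l3 and tuba8l5 were both highest in number 4, at 37.1 and 6.11 CPM. Summed CPM of 11 neuron marker genes lay between 59.7 (number 4) and 74.4 (number 2), a fold of 1.25. The sum was 72.1 in number 3, where TUBA1A was highest, and 74.4 in number 2, where TUBA1A was lowest. The single markers varied more than their sum, with a median fold of 2.45 between the highest and the lowest number. They did not move as one: 5 were highest in number 2, 3 in number 1, 2 in number 3 and 1 in number 5. The part of neurons in the TUBA1A level was not tested.

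**Figure D1:**
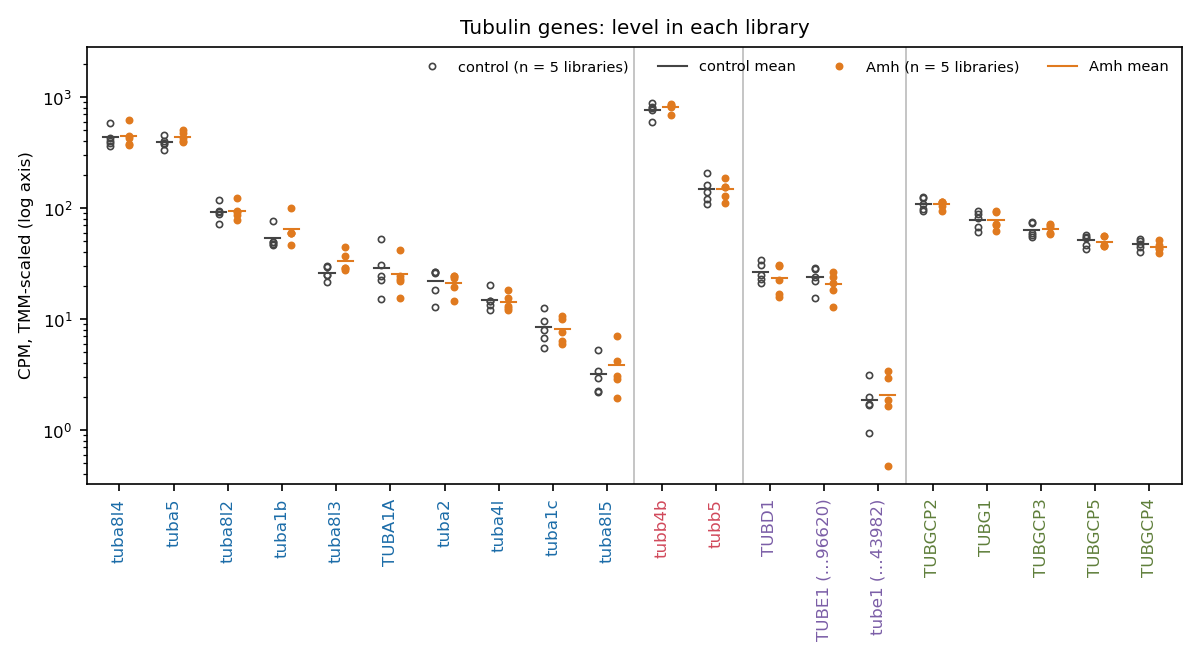
Level of each of the 20 tubulin genes in CPM (log axis), with 5 control libraries as open circles, 5 Amh libraries as filled circles and the group means as bars. Genes are grouped by family and ordered by mean level. The control and Amh libraries overlap for every gene, and tubb4b, tuba8l4 and tuba5 lie at the top.

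Of the beta-tubulins, tubb4b (ENSDARG00000002344) is known in mammals as a beta-tubulin of cilia and flagella. It held 84.1% (74.3% to 88.6%) of the counts of the 4 genes named tubb, and tubb5 (ENSDARG00000037997) 15.9% (11.4% to 25.7%). Beta-tubulin genes under other names or without counts here are not in these shares. tubb4b stood at 763, 599, 879, 811 and 799 CPM in control libraries 1 to 5 and at 829, 688, 865, 819 and 854 CPM in Amh libraries 1 to 5. tubb5 stood at 161, 208, 119, 139 and 108 CPM in control and at 155, 187, 111, 154 and 128 CPM in Amh cultures. The pair of genes ran in opposite directions across numbers. Number 2 was lowest for tubb4b and highest for tubb5 in both groups, and number 3 was highest for tubb4b and, at 115 CPM over both libraries, lowest for tubb5. tubb4b was also the member with the most reads of all 57.

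TUBD1 (ENSDARG00000058219) and TUBE1 (ENSDARG00000096620), the delta- and epsilon-tubulins needed for the triplet microtubules of centrioles, were far less read. TUBD1 stood at 20.9, 22.8, 30.8, 34.1 and 24.7 CPM in control libraries 1 to 5 and at 15.9, 16.8, 30.8, 30.2 and 22.6 CPM in Amh libraries 1 to 5, and TUBE1 at 15.5, 24.1, 28.6, 28.1 and 22.0 and 12.8, 18.3, 26.6, 24.0 and 21.1 CPM. Both were lowest in number 1 and high in numbers 3 and 4, and both were lower in the Amh library of each pair. For TUBD1 the libraries numbered 3 were all but equal, with a log2 ratio of -0.0032. A gene that the table names tube1 (ENSDARG00000043982) had 228 counts over all libraries and 1.88 ± 0.792 CPM without and 2.06 ± 1.15 CPM with Amh (SD, n = 5 each).

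Gamma-tubulin, TUBG1 (ENSDARG00000015610), stood at 78.2 ± 13.9 CPM without and 78.1 ± 13.9 CPM with Amh (SD, n = 5 each), and 4 subunits of the complex that holds it, TUBGCP2, TUBGCP3, TUBGCP4 and TUBGCP5, had means of 47.3 ± 4.93 to 109.6 ± 13.7 CPM in control libraries. This was the steadiest group, with a median fold of 1.28 between the highest and the lowest number against 1.75 over all genes tested. Its genes were also measured more closely. The log2 change with Amh, fitted beside number, had a median standard error of 0.0786 in them and 0.133 over all genes. The part of this in the smaller fold was not tested.

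The kinesins with the most reads were one of the axoneme and a row of motors of the spindle. kif9 (ENSDARG00000031693), a motor of motile cilia and flagella, held 11.4% of the counts of the 40 kinesin genes found by name. KIF23 (ENSDARG00000014943), a subunit of the complex that bundles the central spindle at cytokinesis, held 11.0%. kif11, which pushes spindle poles apart, held 9.06%, kif20a, which acts at cytokinesis, 7.02%, and kifc1, a motor that walks to microtubule minus ends, 6.64%. KIF17, a motor of cilia, followed with 6.50%, KIF5B, a heavy chain of conventional kinesin, with 5.86% and kif2c, which takes microtubule ends apart at the kinetochore, with 5.48%.

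**Figure D2:**
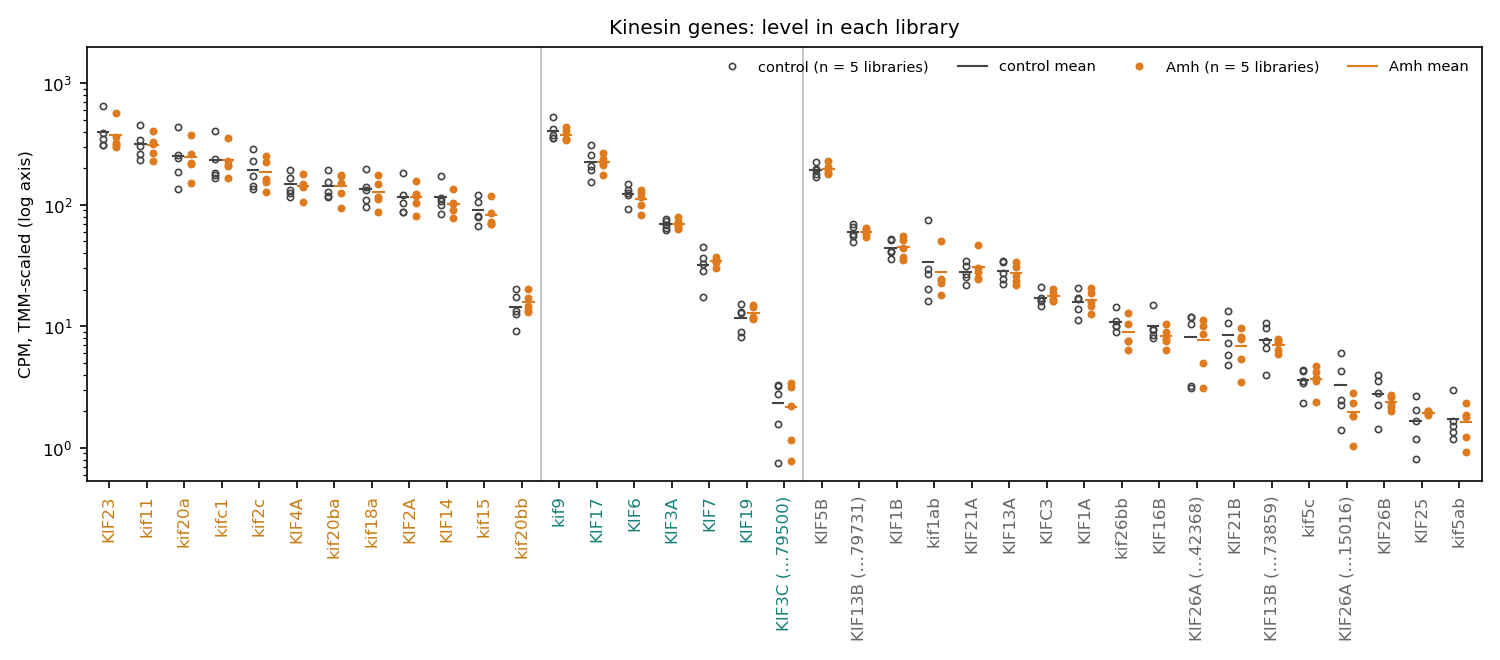
Level of each of the 37 kinesin genes in CPM (log axis), with control libraries as open circles, Amh libraries as filled circles and group means as bars (n = 5 each). Genes are grouped as spindle and cytokinesis, cilium and flagellum, and cargo transport and other. In each spindle kinesin 1 library of each group, that numbered 3, tops the rest.

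All 12 kinesins of the spindle and of cytokinesis were highest in number 3, in the control and in the Amh libraries alike. By the mean of both libraries of a number, 24.1% of all genes tested were highest in number 3. The share of all genes highest there in each group separately was not computed. KIF23 stood at 386, 309, 643, 310.3 and 349 CPM in control libraries 1 to 5 and at 324, 359.6, 568, 311 and 297 CPM in Amh libraries 1 to 5. kif20a stood at 242, 135, 438, 256 and 184 CPM in control and at 222, 217, 373, 261 and 152 CPM in Amh cultures. kifc1 stood at 236, 175, 402, 181 and 164 CPM in control and at 229, 209, 357, 213 and 167 CPM in Amh cultures. The libraries numbered 3 stand clear of the rest of their group in these genes, and the groups overlap.

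kif11 (ENSDARG00000010948) stood at 340.5, 233, 453, 304 and 260.1 CPM in control libraries 1 to 5 and at 316, 268, 407, 326 and 227 CPM in Amh libraries 1 to 5, lowest in number 5 over both groups. The second number differed among the 12. In kif2c alone it was number 2, at 227 CPM over both libraries, against 272 CPM in number 3 and 130.5 CPM in number 5. KIF4A, a chromosome-bound motor, kif18a, which holds chromosomes near the spindle equator, and KIF2A, a depolymerase related to kif2c, had 186, 186 and 169 CPM in number 3 and 111, 98.3 and 83.8 CPM in number 5. KIF14, a cytokinesis motor, kif15, which aids kif11 on the spindle, and the paralogues kif20ba and kif20bb completed the 12, with 154, 118, 185 and 20.1 CPM in number 3. The lowest number was 5 in 8 of the 12.

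Summed CPM of these 12 kinesins ran from 1627 in number 5 to 3112 in number 3, a fold of 1.91. The peak was not theirs alone. Of 19 tubulin modifying enzymes 13 were highest in number 3, with sums of 2417 CPM there and 1311 CPM in number 2, a fold of 1.84. Of 11 partners of the gamma-tubulin ring 6 were highest there, of 24 genes of severing and dynamics 6, of 9 of tubulin folding 3 and of 11 light chains and adaptors 3. Germ cell markers did not move as one. Of 16 markers of spermatids and flagella 10 were highest in number 3 and 2 lowest there, with sums of 4943 CPM in number 3 and 3338 CPM in number 5. Of 12 markers of spermatogonia and mitosis 4 were highest in number 3 and 4 lowest there (sums of 4007 and 2800 CPM). The 4 highest there were the mitotic genes CCNB1, CDK1, plk1 and mki67, at 677, 283, 848 and 666 CPM against 277, 209, 415 and 325 CPM in number 5. The 4 lowest there were the spermatogonial genes pou5f3, DAZL and KIT and the mitotic gene AURKB, at 159 CPM against 181 CPM in number 5. bub1 and PCNA were highest in number 4, so the mitotic genes did not move as one either. Of 13 meiotic markers 4 were highest and 5 lowest in number 3 (sums of 3699 and 2923 CPM), and SYCP1 alone held 2382 CPM in number 3 and 1594 CPM in number 5. Summed markers of Sertoli cells (10 genes) and of Leydig cells (6 genes) were lowest in number 3, at 1848 and 33.4 CPM, against 2715 and 217 CPM in number 4. In bulk tissue more cells of a type and more RNA per cell cannot be told apart. The part of cell makeup in these levels was not tested.

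Kinesins of cilia and flagella were 7 genes. kif9 stood at 418, 352, 528, 354 and 376 CPM in control libraries 1 to 5 and at 349.9, 405, 432, 347 and 339.7 CPM in Amh libraries 1 to 5. KIF17 stood at 254, 153, 312, 207 and 194 CPM in control and at 238, 221, 269, 214 and 175 CPM in Amh cultures, and KIF6 (ENSDARG00000053240), another motor of motile cilia, at 124, 119, 148, 133 and 91.7 and 117, 99.7, 133, 125 and 81.9 CPM. Each was highest in number 3, as was KIF7, the ciliary kinesin of Hedgehog signalling, at 41.4 CPM over both libraries. KIF3A, a motor subunit of intraflagellar transport, differed little, with 64.7 to 77.9 CPM over the numbers. KIF19, which limits cilium length in mice, stood at 12.3 CPM on average and KIF3C (ENSDARG00000079500), of the same family as KIF3A, at 2.24 CPM. KIF3C ran the other way, at 0.768 CPM in number 3 and 3.33 CPM in number 5.

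The remaining 18 kinesins, of cargo transport and of other or unknown use, summed to 461 to 497 CPM per number, a fold of 1.08. The single genes varied more than their sum, with a median fold of 1.63 between the highest and the lowest number. KIF5B, at 193 ± 21.0 CPM in control and 198 ± 19.6 CPM with Amh (SD, n = 5 each), held the largest part. The next were KIF13B (ENSDARG00000079731), a carrier of vesicles, at 59.6 CPM and KIF1B, a carrier of mitochondria and synaptic vesicles, at 44.5 CPM. Within this group kif1ab (ENSDARG00000062024), of the same family as KIF1B, followed the spindle kinesins, at 29.5, 16.1, 75.5, 27.0 and 20.3 CPM in control libraries 1 to 5 and 22.6, 24.7, 50.4, 23.8 and 17.9 CPM in Amh libraries 1 to 5. KIF26A (ENSDARG00000042368), an atypical kinesin, also differed between numbers, at 3.13, 9.55, 11.0, 11.7 and 4.14 CPM over both libraries of numbers 1 to 5.

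**Figure D3:**
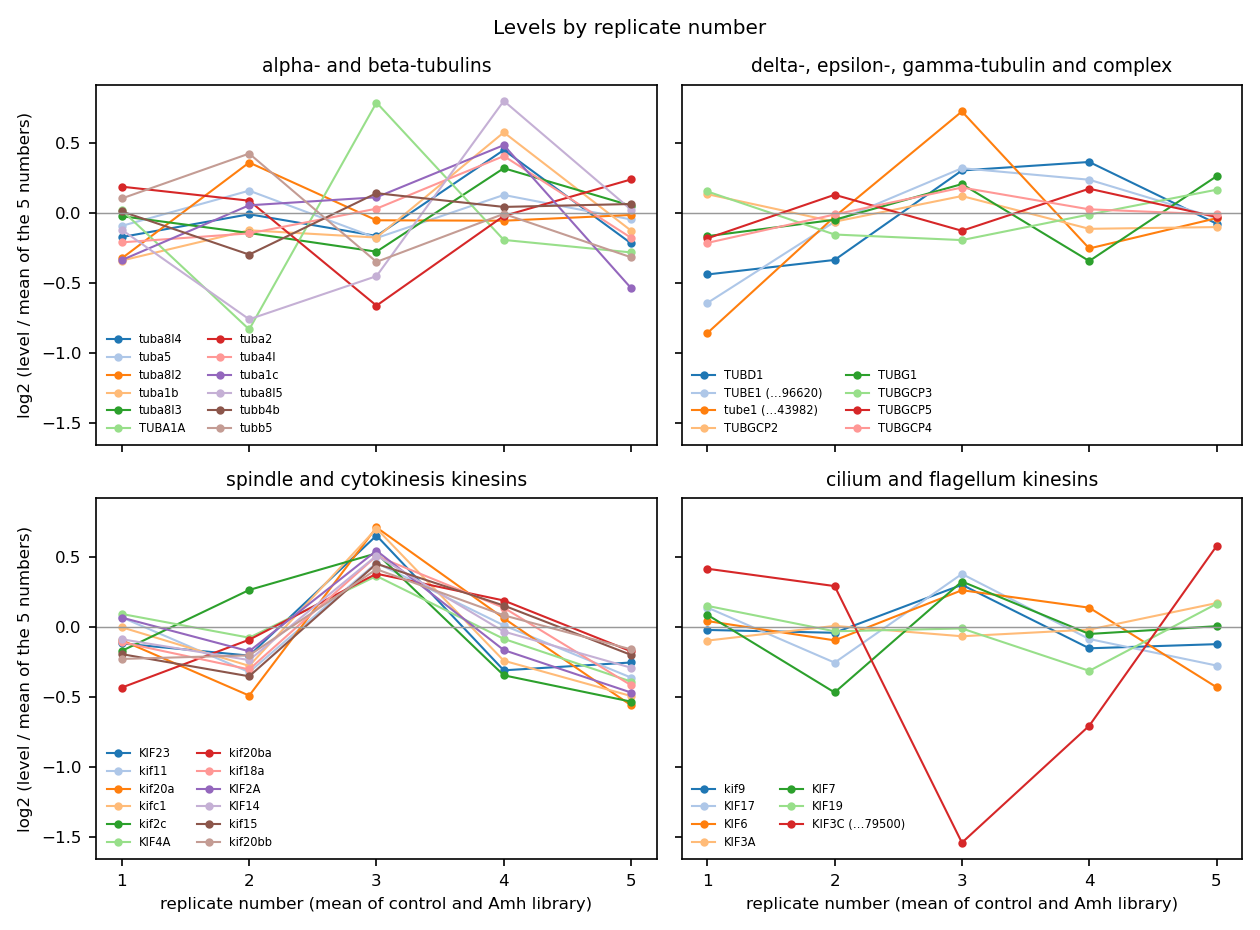
Level of tubulins and of spindle and cilium kinesins by replicate number, as log2 of the mean of the control and the Amh library of a number over the mean of the 5 numbers. Each line joins the values of one gene, and the numbers have no order. The 12 spindle and cytokinesis kinesins all peak at number 3, whereas 6 of the 10 alpha-tubulins are highest at number 4.

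Differences between numbers were tested with edgeR's quasi-likelihood test of the number terms beside group, adjusted over all genes. Of the 57 members 40 passed, 70.2%, against 52.6% of all genes tested. Members were also measured more closely. The log2 change with Amh, fitted beside number, had a median standard error of 0.0935 in members and 0.133 over all genes. The part of this in the share that passed was not tested. Of 20 tubulin genes 15 passed, of 12 spindle kinesins 11, of 7 cilium kinesins 5 and of the other 18 kinesins 9. The smallest adjusted p were 5.25e-06 for TUBA1A, with a fold of 3.07 between its highest and lowest number, 6.49e-06 for kif2c (2.08-fold) and 6.59e-06 for kifc1 (2.29-fold). tuba5 (1.26-fold, adjusted p = 0.0703) and KIF5B (1.27-fold, 0.111) did not pass. Without number 3, 26 members passed (45.6%, against 34.6% of all genes), among them 9 of the 12 spindle kinesins, 1 of the 7 cilium kinesins and 4 of the other 18. Without number 4, 29 members passed (50.9%, against 39.4% of all genes), and the tubulins fell from 15 to 9, the alpha-tubulins among them from 9 to 3, and the other 18 kinesins from 9 to 5.

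The highest control library and the highest Amh library bore the same number in 40 of 57 members (70.2%), against 52.5% of all genes. In median the members differed 1.71-fold between their highest and lowest number, against 1.75-fold over all genes tested.

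Amh cultures were compared with controls to see what Amh adds to 11KT. No tubulin or kinesin gene passed this test. With group as the only term, edgeR's quasi-likelihood test called 0 of 57 members (0% of all genes tested), and 0 members had an unadjusted p under 0.05 (0.675% of all genes). Since same-numbered libraries deviated together, the number was also used as a block, which again called 0 of 57 (0.0206% of all genes). DESeq2 and limma-voom called 0 members with and without the block. With the block 7 members had an unadjusted p under 0.05, 12.3% against 8.72% of all genes, 3 of them higher (3.84% of all genes) and 4 lower (4.88%). The smallest adjusted p of a member was 0.9999 without and 0.376 with the block. The control and Amh ranges overlapped in all 57 members (0.139% of all genes had separate ranges).

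Most members were measured closely enough to bound a change only when the number was used as a block. With the block the median standard error was 0.0935 in members and 0.133 over all genes tested. With the block the pointwise 95% interval of the log2 fold change lay inside -0.5 to 0.5 for 44 of 57 members (60% of all genes tested), among them all 12 spindle kinesins, both beta-tubulins and all 5 genes of gamma-tubulin and its complex. Without the block it did so for 25 (32.2% of all genes), among them 4 of the 12 spindle kinesins, both beta-tubulins and all 5 genes of gamma-tubulin and its complex. tubb4b, at 770.3 ± 104 CPM without and 811 ± 71.2 CPM with Amh (SD, n = 5 each), had a blocked log2 fold change of 0.08 ± 0.0710 (SE) with an interval of -0.07 to 0.23. For tuba8l4 the interval was -0.11 to 0.20, for kif11 -0.20 to 0.13 and for kif9 -0.27 to 0.07. Without the block the intervals were wider. They were -0.23 to 0.37 for tubb4b, -0.34 to 0.44 for tuba8l4, -0.48 to 0.39 for kif11 and -0.43 to 0.20 for kif9.

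**Figure D4:**
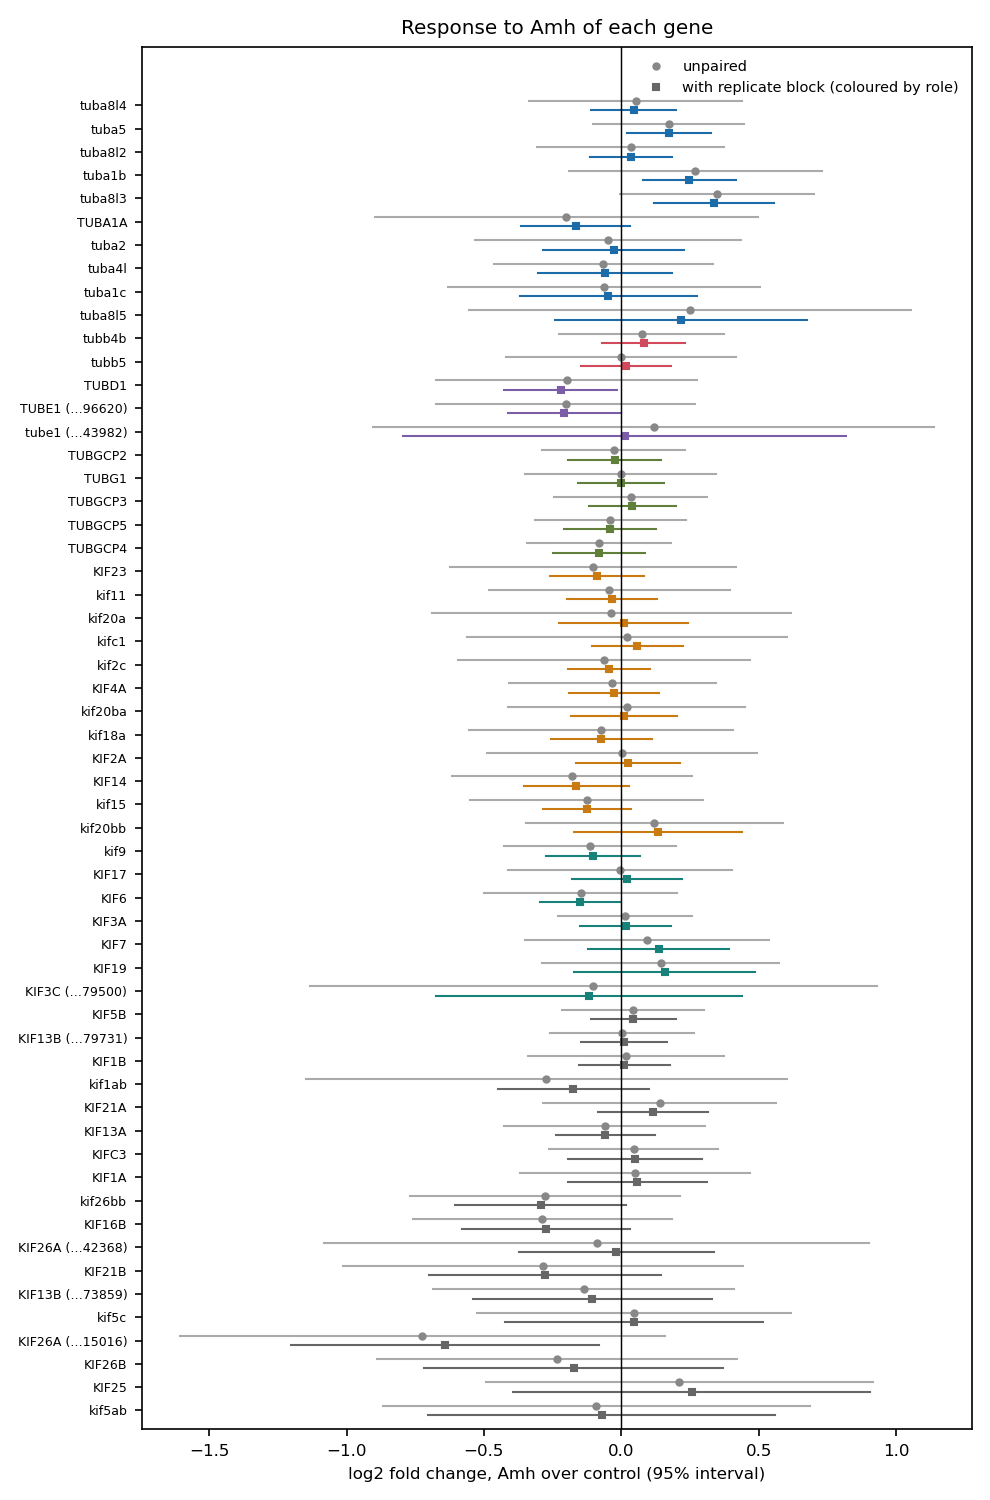
Log2 fold change of Amh over control for each of the 57 members with its pointwise 95% interval, without the block (grey circles) and with replicate number as a block (squares, coloured by role). No member passed the test in either fit, and the blocked interval leaves out 0 in the 7 with an unadjusted p under 0.05.

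The 3 members on the higher side were alpha-tubulins. tuba8l3 (ENSDARG00000070155) stood at 29.8, 25.0, 21.6, 29.5 and 25.0 CPM in control libraries 1 to 5 and at 28.8, 28.9, 27.5, 44.8 and 36.6 CPM in Amh libraries 1 to 5, higher in 4 of 5 pairs. Its log2 fold change was 0.35 ± 0.163 without and 0.34 ± 0.103 with the block (SE, edgeR adjusted p = 0.9999 and 0.376). tuba1b was higher in 4 of 5 pairs, with 0.27 ± 0.212 and 0.25 ± 0.0804 (SE, adjusted p = 0.9999 and 0.405), and tuba5 in 5 of 5 pairs, with 0.17 ± 0.127 and 0.17 ± 0.0724 (SE, adjusted p = 0.9999 and 0.528). None passed. The other seven alpha-tubulins were not alike: tuba8l4 and tuba8l2 stood at 0.05 ± 0.178 and 0.03 ± 0.156, TUBA1A at -0.20 ± 0.321 (log2, SE, unpaired) and higher in 1 of 5 pairs.

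The 4 members on the lower side were TUBD1, TUBE1 (ENSDARG00000096620) and 2 kinesins. Each was lower in 5 of 5 pairs, TUBD1 in pair 3 with a log2 ratio of only -0.0032. Members on either side were picked by their blocked p in these same data, so counts of pairs are no separate support. The gene named tube1 was not among these 4, at 0.12 without and 0.01 with the block and higher in 2 of 5 pairs. TUBD1 had a log2 fold change of -0.20 ± 0.218 without and -0.22 ± 0.0971 with the block (SE, adjusted p = 0.9999 and 0.544) and TUBE1 of -0.20 ± 0.217 and -0.21 ± 0.0969 (SE, 0.568 with the block). KIF6 had -0.15 ± 0.161 and -0.15 ± 0.0685 (SE, 0.565 with the block). KIF26A (ENSDARG00000015016), a gene with 2.24, 4.32, 1.40, 5.99 and 2.46 CPM in control libraries 1 to 5 and 1.83, 1.83, 1.05, 2.80 and 2.34 CPM in Amh libraries 1 to 5, had -0.72 ± 0.406 and -0.64 ± 0.264 (SE, 0.524 with the block). The other KIF26A gene (ENSDARG00000042368), with more reads, was not among these 4, at -0.09 ± 0.456 without and -0.02 ± 0.167 with the block (SE). None of the 4 passed, and the libraries of both groups overlapped in each. Over all members 6 were lower in 5 of 5 pairs (5.1% of all genes), the others being KIF13A and KIF16B, and 1 was higher in 5 of 5 (4.67%), which was tuba5.

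The kinesins with the most reads lay near 0. KIF23 had an unpaired log2 fold change of -0.10 ± 0.240, kif20a of -0.04 ± 0.300, kifc1 of 0.02 ± 0.267 and KIF17 of -0.01 ± 0.187 (SE, n = 5 per group). kif2c stood at -0.06 ± 0.244, KIF4A at -0.03 ± 0.173, kif20ba at 0.02 ± 0.198 and KIF5B at 0.04 ± 0.118. Next in order of blocked p on the lower side, kif26bb stood at -0.28 ± 0.227 and KIF16B at -0.29 ± 0.217. On the higher side KIF21A, tubb4b and KIF7 followed, at 0.14 ± 0.195, 0.07 ± 0.138 and 0.09 ± 0.205. tubb5 and TUBG1 were at -0.00 ± 0.192 and -0.00 ± 0.160, and the sign of tubb5, TUBG1, kif20a and KIF17 turned with the block or with thinning to 1 depth, as did that of kif20ba with thinning.

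Pair 2 differed from the other pairs in the kinesins of the spindle and of cilia. The median log2 ratio of Amh over control was 0.26 in pair 2 for the 12 spindle kinesins, against -0.17, -0.17, 0.06 and -0.13 in pairs 1, 3, 4 and 5. For the 7 cilium kinesins it was 0.20 in pair 2 and -0.09, -0.15, 0.05 and 0.06 in the others. The 18 cargo and other kinesins did not share this, with 0.00 in pair 2 and -0.05, -0.18, -0.08 and 0.02 in the others. The 19 tubulin modifying enzymes, a partner list, had 0.25 in pair 2 and -0.26, -0.15, -0.08 and -0.23 in the others, and for all genes tested it lay between -0.01 and 0.00. kif20a had ratios of -0.13, 0.68, -0.23, 0.03 and -0.28 in pairs 1 to 5 and KIF7 of -0.09, 0.80, -0.28, 0.30 and 0.06. In both the control library numbered 2 was the lowest of its group. Without number 2 the blocked test still called 0 members, with 12 of 57 at an unadjusted p under 0.05 (2811 of 19661 genes in that fit, where 229 genes passed).

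**Figure D5:**
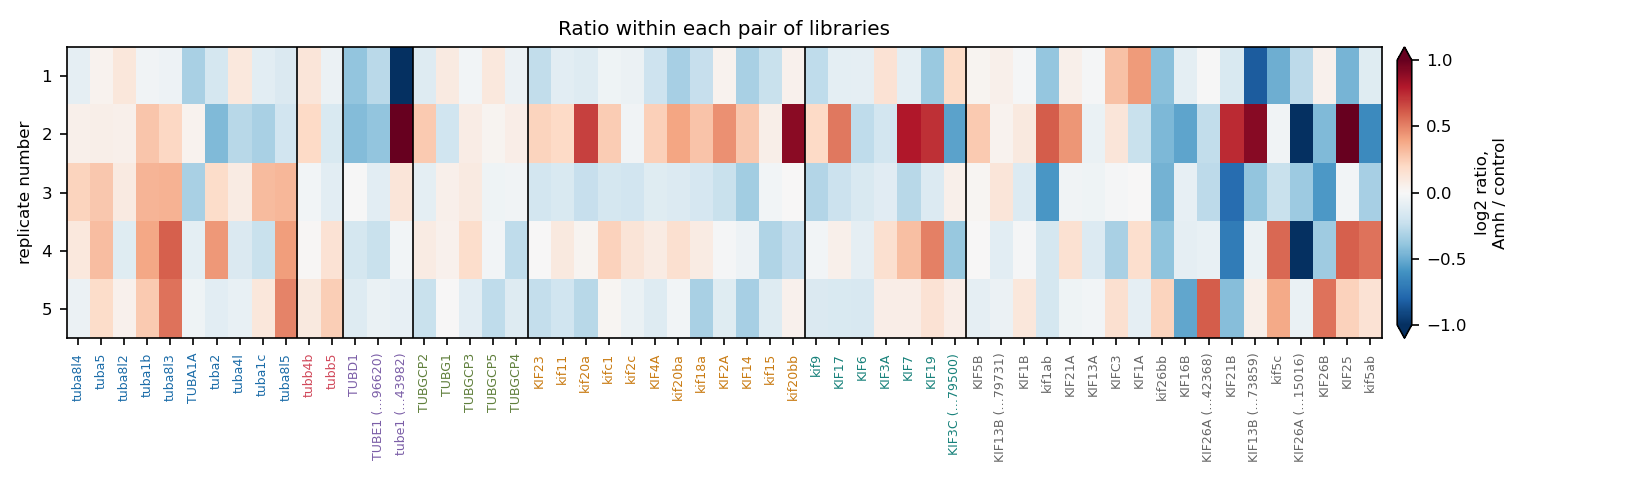
Log2 ratio of the Amh over the control library of each replicate number, for the 57 members ordered by role (colour from -1 to 1, values beyond shown at the end colours). Row 2 is red over most spindle kinesins where rows 1, 3 and 5 are mostly blue, and the delta- and epsilon-tubulins TUBD1 and TUBE1 are blue or white in all 5 rows.

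Partner genes of tubulins and kinesins were read as 5 lists, and no member passed in either direction with or without the block. The gene named first from each list is that with its smallest unadjusted p without the block, so it is not typical of its list. Of 9 genes of tubulin folding the median unpaired log2 fold change was -0.02, with ARL2, a small GTPase of the folding pathway, at -0.23 ± 0.129 (SE, from 224 to 191 CPM, lower in 5 of 5 pairs). Of 19 tubulin modifying enzymes 16 were below 0 (median -0.13), while TTL, the ligase that restores the terminal tyrosine of alpha-tubulin, stood at 0.57 ± 0.363 on 1.51 and 2.25 CPM. Of 24 genes of severing and dynamics 15 were below 0 (median -0.03), with mapta, a tau gene, at -0.25 ± 0.164. Of 11 partners of the gamma-tubulin ring 8 were below 0 (median -0.04), with HAUS1, an augmin subunit, at -0.23 ± 0.186. With the block 5 of these 11 were below and 6 above 0 (median 0.0019), while the other lists kept more genes below than above 0. Of 11 light chains and adaptors 10 were below 0 without the block (median -0.09). KIFAP3 (ENSDARG00000006862), which binds the KIF3 motor, stood at -0.21 ± 0.132 and the other KIFAP3 gene (ENSDARG00000008639) at -0.07 ± 0.108. Beside these, 33 of the 57 members were below 0 (median -0.03) and 10271 of all 19420 genes tested (median -0.01).

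Markers of the cell types were read as further lists. No gene of them passed without the block and 1 did with it, the leukocyte gene cd74a, which was lower. None was at 0 in any library. Of 16 spermatid and flagellum markers 15 were below 0 without the block (median -0.13; sums of 3362 to 5341 CPM in control and 3123 to 4545 CPM in Amh libraries). Of 10 Sertoli markers 9 were above 0 (median 0.30; 1699 to 2393 and 1997 to 3037 CPM), of 6 Leydig markers 5 below (median -0.48; 37.4 to 339 and 29.4 to 206 CPM) and of 7 leukocyte markers all 7 below (median -0.50; 147 to 274 and 105 to 192 CPM). Of 11 neuron markers 8 were below 0 (median -0.15; 65.0 to 81.6 and 54.4 to 73.8 CPM). Of 13 meiotic markers 11 and of 12 markers of spermatogonia and mitosis 9 were below 0 (medians -0.13 and -0.11; sums of 3058 to 3904 and 2882 to 4211 CPM in control, 2773 to 3494 and 2718 to 3804 CPM in Amh libraries). Of 5 erythrocyte markers tested all 5 were below 0 (median -0.31; 66.8 to 155 and 47.1 to 117 CPM). Those of smooth muscle and vessels (5 tested; 179 to 276 and 220.1 to 304 CPM) and of epithelium with motile cilia (4; 643 to 904 and 675 to 1108 CPM) had medians of 0.01. The part of these cells in the values of tuba8l3, tuba1b, TUBD1, TUBE1 and KIF6 was not tested.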

How the data were processed

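The deposited values are counts, whole-number reads per Ensembl gene in 1 file per library, with no normalization by the authors. Build Zv9, TopHat2 2.0.5 and HTSeq, with SAMtools 0.1.18, DESeq and FastQC 0.10.1, stand in the submitters' processing notes without roles. The sources used here give neither annotation release nor counting mode or strand setting. Of the 73 IDs whose name fits the pattern, 11 have no row in these count tables and are not analysed here. No sequence was used. RefSeq's gene table, matched to members by symbol, served for gene order alone, taken from chromosome and gene start.

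Genes were filtered with filterByExpr (19420 kept) and scaled by TMM, also for CPM, and log2 ratios within pairs use a prior count of 2. The test was edgeR 4.0.16 (glmQLFTest, R 4.3.3), group as the only term, Benjamini-Hochberg over all tested genes, threshold 0.05; standard errors were obtained as the log2 change divided by the root of F. DESeq2 1.42.0 and limma-voom (limma 3.58.1) were alternatives. In simulated counts with known changes the median estimates lay close to the changes put in. The shares called are not given here, so that check sets no limit on the changes these tests could miss. Of 195 list entries 129 matched a symbol in any case, 29 after the paralogue letter was dropped and 37 none. An entry could match several genes of the same name, as SOX9 and CLDN11 did among the Sertoli markers. All such genes were counted.

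The numbers were taken to pair the libraries: across genes, which are not replicates, departures of same-numbered libraries from their group means had r of 0.490 to 0.784 and other pairs -0.338 to 0.130. No 2 libraries were copies (chi-square per degree of freedom at least 4.33). Labels name no separate animals, so p-values measure the spread between libraries as deposited. Members, roles and lists were chosen with earlier results of these data known. Genes named with a test were the 8 alpha- and beta-tubulins and 10 kinesins with the most CPM and the gamma-, delta- and epsilon-tubulins. Also named were the 6 members of smallest blocked p in each direction and, per partner list, the 1 gene of smallest unpaired p. Other values are descriptions.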

Additional observations from a re-analysis of the deposited data

Results flagged for a closer look

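In 114 groups of 5 libraries (57 members, control and Amh), 11 held a library whose gap to the rest exceeded Dixon's limit of 0.71 of the range. Chance would give about 1 in 20, or 5.7, for independent groups of normally spread values. Same-numbered libraries deviated together and genes shared peaks, so the groups are linked and 11 cannot be weighed against 5.7. For tuba1b the libraries numbered 4 stood above the others in both groups, at 76.9 CPM in control (others 46.5 to 49.5) and 100.5 CPM in Amh libraries (others 46.4 to 59.9). For KIF23 those numbered 3 did so, at 643 CPM in control (others 309 to 386) and 568 CPM in Amh libraries (others 297 to 360). For kif1ab they did so at 75.5 CPM in control (others 16.1 to 29.5) and 50.4 CPM in Amh libraries (others 17.9 to 24.7). In these genes the same number stood out in both groups. In the others it did so in 1 group: tuba4l in control 4 (20.3 CPM, others 12.2 to 14.5), KIF16B in control 5 (15.0 CPM, others 8.06 to 9.53), kif5ab in control 3 (3.01 CPM, others 1.18 to 1.66), KIF21A in Amh 2 (46.9 CPM, others 24.5 to 30.2) and, on the low side, tubb4b in Amh 2 (688 CPM, others 819 to 865).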

How the results depend on the processing

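No tubulin or kinesin gene was called under any of the alternatives run, which were the replicate block, RLE and upper-quartile scaling, no filter or another filter on low counts, DESeq2, limma-voom, thinning to 1 depth and leaving out libraries or numbers. Over all genes the count of 0 became 4 with the replicate block, 25 in DESeq2 with the block and 8 in limma-voom with the block. After thinning with the block it was 6. Without the block it stayed 0 when 1 library was left out. With the block it was 0 to 229 when 1 number was left out, the 229 being without number 2. Differences between numbers were called for 6775 to 11828 genes and 26 to 46 members when 1 number was left out. Of 28 named members 10 kept their sign in every alternative, and 6 turned in an alternative that left out no library. Most of the 10 were among the members of smallest blocked p in these same data, so a kept sign is no separate support. tubb5 (-0.00, log2) became 0.02 with the replicate block, 0.0031 with no filter, 0.013 in DESeq2 with the block, 0.014 in limma-voom, 0.016 in limma-voom with the block, 0.013 after thinning and 0.033 after thinning with the block. KIF17 (-0.01) became 0.02 with the replicate block, 0.018 in DESeq2 with the block, 0.027 in limma-voom, 0.018 in limma-voom with the block, 0.0031 after thinning and 0.028 after thinning with the block. kif20a (-0.04) became 0.0082 with the replicate block, 0.0074 in DESeq2 with the block, 0.020 in limma-voom, 0.0063 in limma-voom with the block and 0.013 after thinning with the block. TUBG1 (-0.0022) became 0.0021 with no filter, 3.59e-05 in limma-voom with the block, 0.013 after thinning and 0.019 after thinning with the block. tube1 (0.12) became -0.011 in DESeq2 with the block, -0.11 in limma-voom and -0.041 after thinning with the block. kif20ba (0.02) became -0.014 after thinning and -0.022 after thinning with the block. Leaving out libraries moved tubb4b from -0.0033 to 0.13, tuba8l4 from -0.092 to 0.18, tubb5 from -0.10 to 0.16, tuba8l2 from -0.076 to 0.14, TUBA1A from -0.45 to 0.12, tube1 from -0.31 to 0.38, TUBG1 from -0.080 to 0.071, KIF23 from -0.31 to 0.13, kif11 from -0.16 to 0.12, kif20a from -0.24 to 0.26 and kifc1 from -0.18 to 0.31. It moved KIF17 from -0.11 to 0.14, KIF5B from -0.015 to 0.11, kif2c from -0.20 to 0.13, KIF4A from -0.12 to 0.088, kif20ba from -0.081 to 0.16, KIF21A from -0.059 to 0.22 and KIF7 from -0.060 to 0.25. With the sign kept, it moved tuba1b from 0.062 to 0.43, kif9 from -0.18 to -0.0016, TUBD1 from -0.32 to -0.089, TUBE1 from -0.32 to -0.073, KIF6 from -0.24 to -0.055, KIF16B from -0.39 to -0.099, kif26bb from -0.45 to -0.16 and KIF26A (ENSDARG00000015016) from -0.91 to -0.39. The causes were not tested. The lowest adjusted p of a named member in any alternative was 0.0684, for tuba8l3, whose log2 change ran from 0.22 to 0.44. Genes near 1 CPM, such as tube1 and KIF3C, rest on few counts.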
